A study of Mus musculus with 2 samples.

Results

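The genes described here are the nuclear-encoded subunits of the mitochondrial respiratory chain and the ATP synthase, followed in peeled mouse epidermis with and without the nuclear IκB protein IκBζ in keratinocytes. Members were taken by symbol (Nduf followed by a, b, c, s or v and a digit, Sdha to Sdhd, Uqcr, Cox4 to Cox8, and Atp5). The rule took no measured value into account. A RefSeq gene table held 105 such symbols, 87 of them protein-coding and 18 pseudogenes. A probe could be assigned through its RefSeq accession to 83 of them, among 18206 named genes on the array. None of the pseudogenes had an assigned probe, and Ndufa4l2, Ndufb1, Ndufb4b and Ndufb4c were not analysed here. Of the 83 members, 79 were measured on both arrays (well above background and not saturated), 1 was measured on the control array alone, and 3 on neither.

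The knockout array held RNA from epidermis of Nfkbiz flox/flox mice that also carry K5-cre, a recombinase transgene under the keratin 5 promoter, which is active in basal keratinocytes. The control array held RNA from epidermis of Nfkbiz flox/flox mice without the transgene. Both groups thus carry the floxed Nfkbiz allele, and both were described as steady state. The age of the mice is not used here. Epidermis was lifted with forceps after 30 min in 3.8% ammonium thiocyanate at 37°C, and labelled RNA was hybridised to 1 Agilent one-colour array per genotype. The extraction note speaks of skin tissue, while the sample titles name epidermis. Each genotype has a single array, so differences have no replicate behind them, no test was possible and genes were called by size alone. The sources used here do not give how many animals each RNA came from. Keratinocytes above the basal layer descend from basal cells, and cells of the epidermis outside that lineage keep the gene.

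The respiratory chain passes electrons from NADH and succinate to oxygen and uses the energy to pump protons across the inner mitochondrial membrane. Complex I oxidises NADH, complex II (succinate dehydrogenase) oxidises succinate, complex III passes electrons from ubiquinol to cytochrome c, and complex IV (cytochrome c oxidase) passes them to oxygen. The proton gradient drives complex V, the ATP synthase. Most subunits are encoded in the nucleus, a few in mitochondrial DNA, and both sets must be made in step. Nuclear respiratory factor 1 and GA-binding protein are known activators of many nuclear subunit genes. Several complex IV subunits also exist as isoforms that heart, skeletal muscle or brown fat use in place of the ubiquitous form.

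Promoter sequence was examined because the choice by symbol did not use it. RefSeq promoter windows (250 bases before to 50 after the start, assembly GRCm38.p6) were found for 68 of the 83 members. The palindromic site of nuclear respiratory factor 1 was searched on both strands and stood in 5 of the 68 member promoters (7.35%), against 290 of 27025 genes with a promoter window (1.07%). In Ndufa11, Atp5g2, Atp5k and Cox6a1 it lies upstream of the start, and these stretches are shown with the site in capitals and the gene's own strand written 5′ to 3′. They are shown because they place the same uninterrupted site in subunit genes of 3 complexes, although other elements searched were found in more members.
Ndufa11 (chr17:56717677-56717736, + strand): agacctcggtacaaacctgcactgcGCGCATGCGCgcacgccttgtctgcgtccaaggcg
Atp5g2 (chr15:102671055-102671114, - strand): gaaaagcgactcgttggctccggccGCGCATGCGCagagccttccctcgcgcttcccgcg
Atp5k (chr5:108434415-108434474, - strand): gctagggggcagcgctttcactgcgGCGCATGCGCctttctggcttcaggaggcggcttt
Cox6a1 (chr5:115349086-115349145, - strand): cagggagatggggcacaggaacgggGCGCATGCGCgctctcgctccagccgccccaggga

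The GA-binding protein element CCGGAAG, on either strand, stood in 17 of the 68 member promoters, against 9.93% of all genes. These 17, all measured, had a median difference of -0.02 and ranged from -0.32 to 1.15. Among them are Ndufs3 and Atp5e, the 2 members at least 1.5-fold higher in knockout, which were picked for printing by their differences. Their stretches follow, with CCGGAAG or its reverse complement CTTCCGG in capitals. The muscle isoform gene Cox8b is set beside them. Its window holds the E-box CAGCTG, a site type that myogenic factors bind, and neither of the elements above. The window of Cox7a1, another muscle isoform gene, does not hold this E-box, and Cox6a2 had no promoter window.
Ndufs3 (chr2:90904722-90904773, - strand): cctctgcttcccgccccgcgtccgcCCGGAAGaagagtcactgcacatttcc
Atp5e (chr2:174464172-174464228, - strand): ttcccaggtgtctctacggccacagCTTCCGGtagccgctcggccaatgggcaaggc
Cox8b (chr7:140900447-140900490, - strand): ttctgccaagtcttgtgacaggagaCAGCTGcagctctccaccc

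The shorter form GCGCATG was in 13 member promoters (19.1%, against 4.41% of all genes), and it includes every match of the longer form. The YY1 element was in 5 (7.35%, against 0.995%), the estrogen-related receptor element TCAAGGTCA in 2 (2.94%, against 0.466%), and the CREB element TGACGTCA in 4 (5.88%, against 2.03%). The SP1 element GGGCGG was in 28 (41.2%, against 38.2%) and CAGCTG in 6 (8.82%, against 18.3%). The E-box was added to this search after the members' values were seen. A match is a run of letters and not a shown binding site.

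Array-wide values set the scale. Signals were divided by the 75th percentile of their array, 226 for knockout and 194 for control, and 56.3% of probes were well above background on each. Nfkbiz itself had a signal of 1760 in knockout and 3100 in control, a log2 difference of -1.04 ± 0.20 (knockout minus control, here and throughout). Signals are printed before this scaling and differences after it, so equal signals give a difference a little below 0. The sources used here do not say whether its probe lies in the deleted part, so this checks the label only in part. Errors after ± are standard errors from the scanner software and cover technical error within these arrays, not differences between animals. All 7 keratinocyte markers with a probe were measured on both arrays (Krt14 at 47800 in knockout and 48500 in control), and none of 3 endothelial markers was. Markers from outside the epidermis were also present, with 5 of 6 dermal fibroblast markers measured on both arrays (Col3a1 at 600.0 in knockout and 641 in control) and skeletal muscle markers as given beside the complex IV isoforms. Levels of different probes are not comparable and are not ranked.

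The subunits as a group sat where the other genes did. Their median log2 difference was -0.04, and the median over all 12410 genes measured on both arrays was also -0.04. The interquartile range of the members ran from -0.14 to 0.12, a width of 0.26, against 0.62 for all measured genes. Of the 79 members, 52 (65.8%) differed by no more than their own technical error, against 38.5% of all genes.

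Past 2-fold, 1 member was higher in knockout, against 3.04% of all measured genes, and 1 was lower, against 4.38%. Over both directions 7.42% of all measured genes were past 2-fold. At 1.5-fold, 2 members were higher (10.1% of all genes) and 2 lower (13.2% of all genes). The higher ones were the complex I subunit gene Ndufs3 and the ATP synthase ε subunit gene Atp5e. The lower ones were the muscle isoform genes Cox6a2 and Cox7a1 of complex IV. Bright probes vary less, and most members are bright. Of 3300 genes with a signal of at least 1000 on both arrays, a band chosen after seeing the data, 3.91% were at least 1.5-fold higher and 8.3% lower. The 67 members in that band had 1 higher and none lower, and the width of their interquartile range was 0.23, against 0.42 for all 3300.

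**Figure D1:**
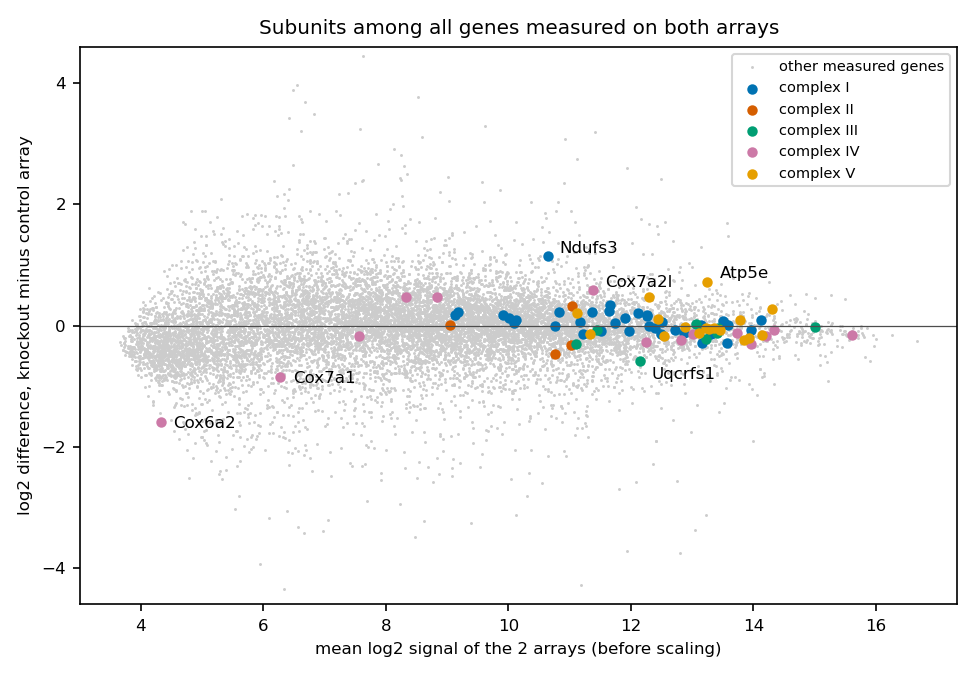
Each point is a gene measured on both arrays, with the mean log2 signal before scaling on the horizontal axis and the log2 difference (knockout minus control, after scaling) on the vertical axis. Members are coloured by complex and other genes are grey. Most members sit on the right, where signals are high, within a narrow band around 0, while Cox6a2 and Cox7a1 are dim and lower and Ndufs3 is higher.

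Complex I had 36 members, all measured on both arrays, with a median of 0.05 and 23 above 0 (5734 of all 12410 measured genes were). Its median was above that of all genes under each of the scalings run, by 0.09 to 0.19. The technical error of a single gene is larger, but it does not measure the error of a median over 36 genes. The shift was not tested. The largest difference in the complex belonged to Ndufs3, a core subunit of the arm that hands electrons to ubiquinone. Ndufs3 had a signal of 2570 in knockout and 992 in control, a log2 difference of 1.15 ± 0.20 (2.22-fold). In the main scaling it stands well apart from its 35 companions. None of these reached 1.5-fold at the probe that stands for it, against 23.3% of all measured genes. A dimmer probe of Ndufv3 was past it (0.72), as were Ndufb3 (0.69) and Ndufs7 (0.59) under median scaling. Ndufs3 is read by a single probe, its 26 measured neighbours on the array had a median difference of 0.02, and it was 1.15 to 1.24 above the median of all genes under every scaling tried.

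Within complex I the members can be read by where they sit. In the ubiquinone-reducing module, all 5 members were above 0 (5734 of all 12410 measured genes were), with a median of 0.22. Ndufs7, which carries the last iron-sulfur cluster, had 3770 in knockout and 2740 in control (0.24). Ndufs8, another iron-sulfur protein, had 679 in knockout and 500 in control (0.22). The accessory Ndufa5 had 6420 in knockout and 5280 in control (0.06). Apart from Ndufs3, none of these is far outside its technical error of 0.20. The modules were drawn up with earlier results of these data known, and no test was made.

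The module that oxidises NADH had a median of 0.08 over 8 members, between -0.14 for Ndufs4 and 0.22 for Ndufv3. Ndufv1, which binds NADH and flavin, had 4290 in knockout and 3390 in control (0.12). Its partner Ndufv2 had 1160 in knockout and 913 in control (0.13). Ndufs1, the largest iron-sulfur protein of the complex, had 4170 in knockout and 3830 in control (-0.10), and Ndufs4, whose loss causes mitochondrial disease in mice and people, had 2440 in knockout and 2310 in control (-0.14, and 0.09 under normexp background correction). These 4 lie within their technical errors. Several probes read Ndufv3, Ndufa12 and Ndufs6 of this module, and their gaps between probes (0.51, 0.31 and 0.23) exceed the technical error.

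The membrane arm was even in its proximal part and less so in its distal part. The 8 subunits of its proximal part, next to the hydrophilic arm, ranged from -0.07 to 0.09 with a median of -0.01, and all 8 were within their technical errors. The 10 Ndufb subunits of the distal part had a median of 0.05 and a wider range. Ndufb3 was the highest of them, with 3920 in knockout and 2650 in control (0.34 ± 0.20). Ndufb8 and Ndufb9 were the lowest, Ndufb8 with 8940 in knockout and 9400 in control (-0.29 ± 0.20) and Ndufb9 with 11900 in knockout and 12500 in control (-0.29 ± 0.20). Each of these 3 is a single-probe gene and under 1.3-fold. Ndufa4, named as a complex I subunit but since assigned to complex IV, had 10500 in knockout and 9900 in control (-0.14).

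**Figure D2:**
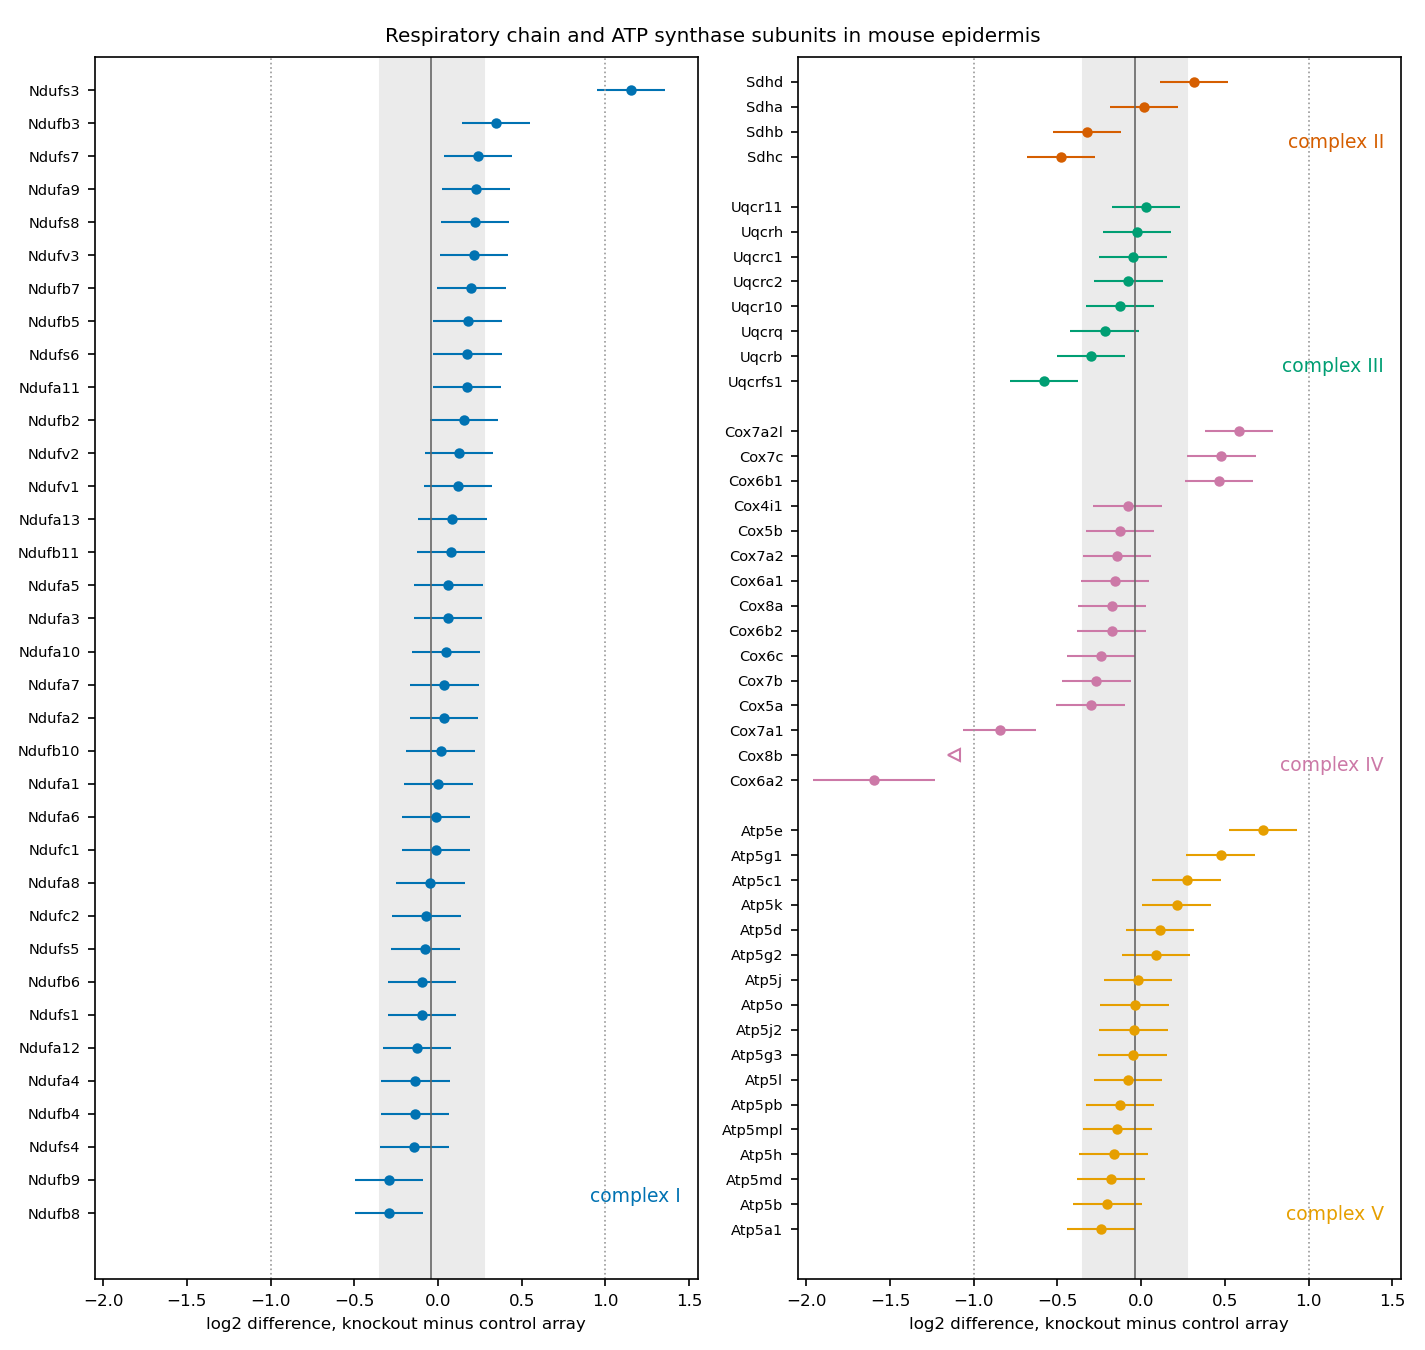
Rows are members, sorted within its complex, with the log2 difference (knockout minus control array) on the horizontal axis and bars of 1 technical standard error. The grey band is the interquartile range of all measured genes (-0.35 to 0.27), the vertical line their median, dotted lines mark 2-fold, and the open triangle is the bound for Cox8b, whose true value lies at or left of it. Ndufs3, Cox6a2 and Cox8b lie past 2-fold.

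Complex II has just 4 subunits, all nuclear, and they lay on both sides of 0. Sdhd and Sdhc form the membrane anchor as a pair, yet they lay on opposite sides. Sdhd had 2540 in knockout and 1750 in control (0.32 ± 0.20). Sdhc had 1590 in knockout and 1900 in control (-0.48 ± 0.20). The iron-sulfur subunit gene Sdhb had 2010 in knockout and 2160 in control (-0.32 ± 0.20), and the 24 measured spots around it had a median of -0.51, the lowest around any measured member. The part of array position in this value was not tested. The flavoprotein gene Sdha had 577 in knockout and 490 in control at its brightest probe (0.02). None reached 1.5-fold. Relative to the median of all genes, Sdhc was between -0.48 and -0.24 over the scalings.

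Complex III had 8 members with a median of -0.10. Relative to the median of all genes, its median ranged from -0.06 to 0.04 over the scalings, so its side depends on the scaling. The subunit furthest from 0 was Uqcrfs1, the Rieske iron-sulfur protein at the catalytic centre of the complex, with 3990 in knockout and 5120 in control (-0.58 ± 0.20), just under the 1.5-fold threshold. It was at -0.23 under median scaling, and between -0.54 and -0.46 relative to the median of all genes over the scalings. The core proteins were nearer 0, Uqcrc1 with 11600 in knockout and 10300 in control (-0.05) and Uqcrc2 with 2950 in knockout and 2670 in control (-0.08). Of the small subunits, Uqcrb, the ubiquinol-binding protein, had 2150 in knockout and 2270 in control (-0.30). Uqcrq had 9620 in knockout and 9610 in control (-0.22). Uqcr10 had 11200 in knockout and 10500 in control (-0.13). Uqcr11 had 9280 in knockout and 7810 in control (0.03). The hinge protein gene Uqcrh had 35200 in knockout and 30700 in control (-0.02). Cyc1, the cytochrome c1 subunit that the symbol rule leaves out, had 3860 in knockout and 3720 in control (-0.17).

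Complex IV had the widest full range of the complexes, from -1.59 to 0.58, but the narrowest interquartile range (0.17), since a few members stood far out. Its 14 measured members had a median of -0.17, and relative to the median of all genes this was between -0.13 and -0.01 over the scalings. The sign of the median itself turned under median scaling (0.18). Among the 11 ubiquitous subunits, 8 formed a tight group between -0.30 and -0.08. In it, Cox4i1, which faces the matrix and senses ATP, had 21700 in knockout and 19700 in control (-0.08). Cox5a had 15500 in knockout and 16400 in control (-0.30 ± 0.20), and Cox5b, which binds zinc, had 14100 in knockout and 13200 in control (-0.13). Cox7b had 4800 in knockout and 4960 in control (-0.27 ± 0.20).

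The other 3 ubiquitous genes stood apart on the higher side. Cox7a2l, a Cox7a relative that joins complexes III and IV into supercomplexes, had 3510 in knockout and 2010 in control (0.58 ± 0.20). Cox7c had 409 in knockout and 252 in control (0.48 ± 0.20), and Cox6b1, on the outer face of the complex, had 577 in knockout and 359 in control (0.46 ± 0.20). All 3 are single-probe genes under 1.5-fold, Cox7a2l only just. Under median scaling each was past it, at 0.93, 0.83 and 0.81.

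Cox6a2, Cox7a1 and Cox8b, muscle isoforms of complex IV, were the members furthest down, while 4 other tissue isoforms were near level or too dim to measure. Cox6a2, the heart and skeletal muscle form of subunit 6a, had 12.5 in knockout and 32.4 in control, a log2 difference of -1.59 ± 0.36 (3.02-fold). The knockout signal is close to 12.1, the dimmest that counted as measured there. Under normexp background correction the difference was -0.59. Cox8b, the muscle and brown fat form of subunit 8, had 8.14 in knockout, which is not well above background, against 22.5 in control, so it was at least 2.17-fold lower in knockout. Cox7a1, the muscle form of subunit 7a, had 62.6 in knockout and 96.6 in control (-0.85 ± 0.22, 1.80-fold), with 8 of its 31 measured neighbours at least 2-fold lower too.

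Their ubiquitous partners were nearly level. Cox6a1 had 51000 in knockout and 48800 in control (-0.16). Cox8a had 19100 in knockout and 18500 in control (-0.17). Cox7a2 had 8480 in knockout and 8040 in control (-0.14). The difference of Cox6a2 minus that of Cox6a1 was -1.44 ± 0.42, and for Cox7a1 minus Cox7a2 it was -0.70 ± 0.30. Cox6b2, a testis isoform, had 192 in knockout and 186 in control (-0.17), against 0.46 for its partner Cox6b1. Cox4i2, Cox7b2 and Cox8c were too dim to be measured on any array.

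Skeletal muscle markers were lower beside these isoforms, though not all of them. Of 9 muscle markers, 7 were well above background in knockout and 9 in control, and their summed scaled signal was 2.20 in knockout and 6.98 in control. The myosin light chain gene Myl1 was 20.4-fold lower (19.4 in knockout and 340 in control), skeletal actin Acta1 9.07-fold lower (24.4 in knockout and 190 in control), troponin C Tnnc2 5.00-fold lower (94.3 in knockout and 405 in control) and Tnnt3 3.33-fold lower (19.4 in knockout and 55.4 in control). Myh4 was at least 4.53-fold lower and Ckm at least 2.62-fold lower. Mylpf, Mb and Atp2a1 differed by -0.04, -0.18 and -0.06. The median over the 7 measured on both arrays was -1.73, and -0.80 under normexp background correction. The part of muscle RNA in the isoform differences was not tested. In a bulk sample fewer cells of a type and less RNA per cell cannot be told apart. Brown fat also uses Cox7a1 and Cox8b, and its uncoupling gene Ucp1 was too dim to be measured, while the adipocyte genes Adipoq, Fabp4 and Cidec differed by 0.58, 0.21 and 0.24. Red blood cell and melanocyte markers were lower as well, red cell markers with summed scaled signals of 9.44 in knockout and 94.6 in control and melanocyte markers with 2.11 in knockout and 8.96 in control. The sums were 11.2 in knockout and 13.0 in control for fibroblast markers and 51.6 in knockout and 35.3 in control for Langerhans cell markers. Such sums weigh the brightest probes most. Of the Langerhans cell markers, Cd207 and Cd74 differed by 1.65 and 0.76, and Epcam by -0.38.

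**Figure D3:**
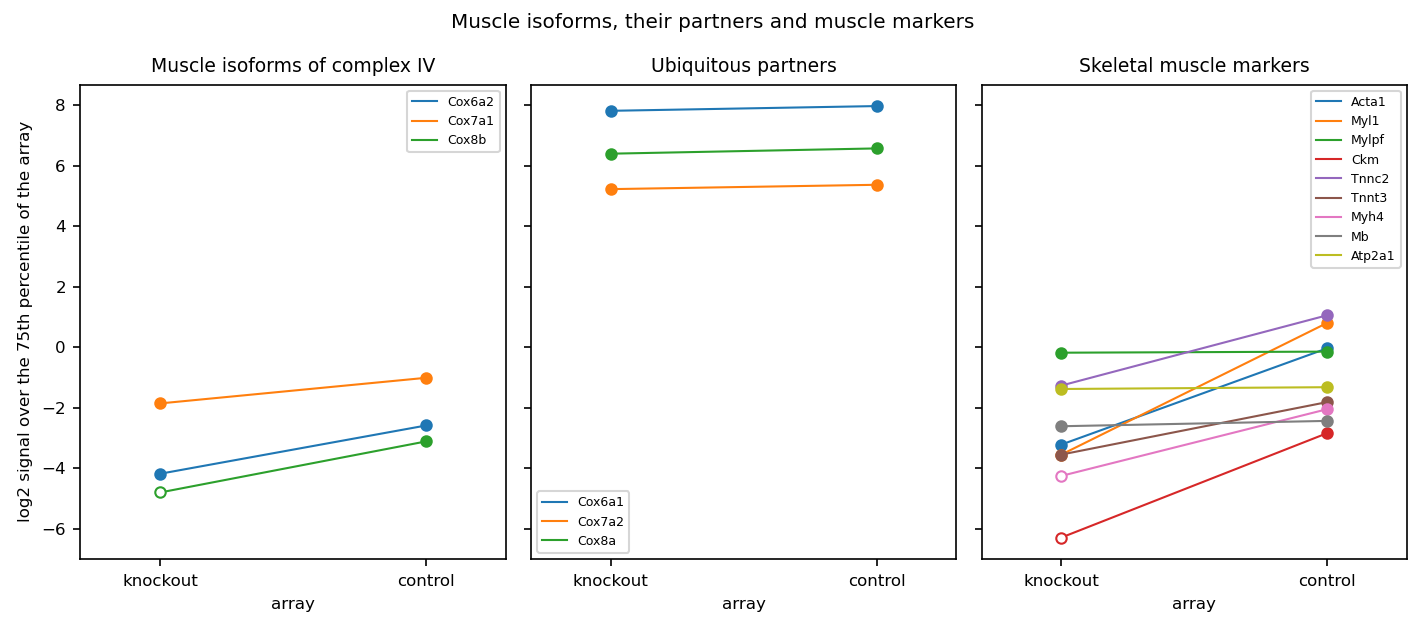
Log2 signal over the 75th percentile of each array is drawn for the knockout array (left) and the control array (right) of each panel, 1 line per gene, with open circles for signals not well above background. The lines of the 3 muscle isoforms and of 6 of the 9 muscle markers are lower at the knockout end, while those of the ubiquitous partners are nearly flat. Heights of different genes are not comparable.

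Complex V had 17 members, all measured on both arrays, with a median of -0.05. Its catalytic head showed the widest spread. The α and β subunit genes were slightly lower, Atp5a1 with 14600 in knockout and 14800 in control (-0.24 ± 0.20) and Atp5b with 15700 in knockout and 15500 in control (-0.20 ± 0.20). The γ subunit gene Atp5c1, which forms the rotor shaft, had 23900 in knockout and 17000 in control (0.27 ± 0.20), and the δ gene Atp5d had 6230 in knockout and 4950 in control (0.11). Atp5e, the ε subunit at the foot of the shaft, had 13500 in knockout and 7000 in control (0.73 ± 0.20, 1.66-fold), the highest member of the complex. Under median scaling Atp5e was past 2-fold (1.08), and it was 0.77 to 0.91 above the median of all genes under each scaling. In the main scaling γ, δ and ε, each from 1 probe, were above 0 and α and β below it, and under median scaling all 5 were above 0.

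The c ring of the rotor is made from 3 genes, Atp5g1, Atp5g2 and Atp5g3, which encode the same mature peptide behind different import signals. Atp5g1 had 6410 in knockout and 3960 in control (0.47 ± 0.20). Atp5g2 had 15600 in knockout and 12600 in control (0.09). Atp5g3 had 10500 in knockout and 9340 in control (-0.05). The peripheral stalk, which holds the head still, was even. Its 4 genes Atp5pb, Atp5h, Atp5j and Atp5o ranged from -0.16 to -0.02, all within their technical errors. The remaining membrane subunits Atp5j2, Atp5k, Atp5l, Atp5md and Atp5mpl ranged from -0.18 to 0.21.

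Probes of the same gene gave a second view of technical error. Of the 79 members, 16 were read by more than 1 measured probe, and the gap between their highest and lowest probe had a median of 0.13. The gap was no larger than 0.20 in 11 of the 16. In 5 of them, Ndufa7, Ndufc1, Cox7a2, Ndufa11 and Ndufa12, the probes had opposite signs, which for values this close to 0 fixes no direction. The widest gap was that of Ndufv3, whose probes differed by 0.22, 0.46 and 0.72, the brightest of them least. The other 63 members rest on 1 probe each, Ndufs3, Atp5e, Cox6a2 and Cox7a1 among them.

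**Figure D4:**
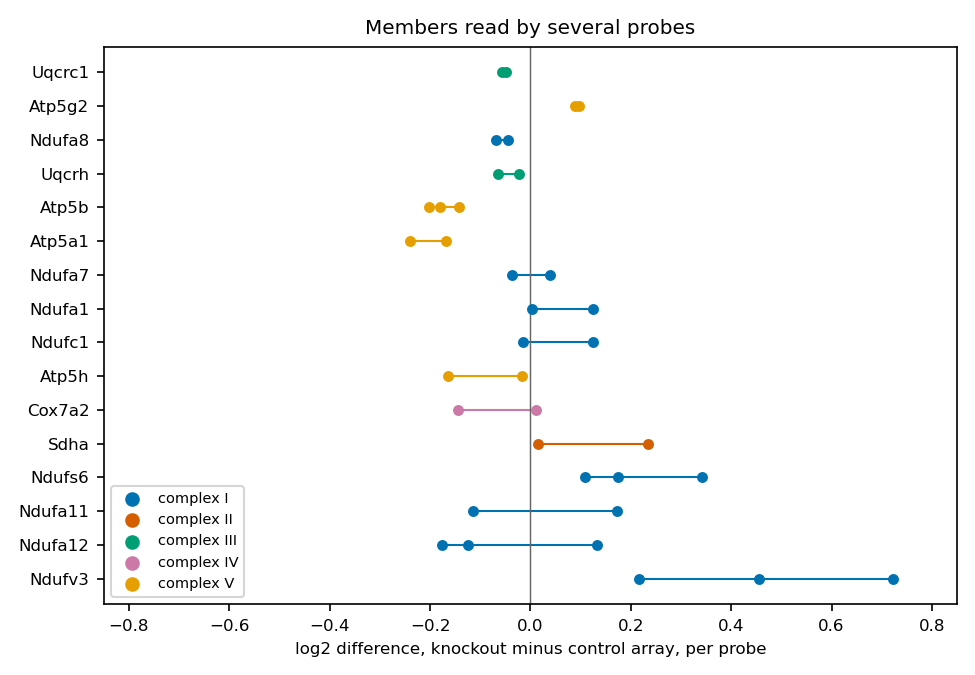
Each point is a probe measured on both arrays, for the 16 members with more than 1 such probe, at its log2 difference (knockout minus control array). Lines join the probes of a gene. Most genes span less than 0.20, and Ndufv3 spans 0.51.

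Promoter elements did not separate the members by their difference. The 24 members with the short nuclear respiratory factor 1 element or the GA-binding protein element, all measured, had a median of -0.02 and ranged from -0.32 to 1.15. The 42 measured members with a promoter window and neither element had a median of 0.02 and ranged from -0.85 to 0.58. Ndufa11, Atp5g2, Atp5k and Cox6a1, whose sites are printed above, differed by 0.17, 0.09, 0.21 and -0.16. Subunits encoded in mitochondrial DNA had no assigned probe and were not analysed here.

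Genes that build or surround the chain were compared with it. Complex I assembly factors had 14 measured members, with a median of 0.15, none past 2-fold, 3 at least 1.5-fold higher and 2 at least 1.5-fold lower. Acad9, an acyl-CoA dehydrogenase relative that serves in complex I assembly, had 7510 in knockout and 3770 in control (0.77 ± 0.20). Ndufaf1, which works with it, had 552 in knockout and 311 in control (0.61 ± 0.20). Ecsit, a partner of both, had 1880 in knockout and 1070 in control (0.59 ± 0.20). Other factors of the list were not raised alike. Tmem126b was at 0.16, Timmdc1 at -0.24 and Tmem186 at -0.24, with 0.04 at the other probe of Tmem186. Ndufaf4 had 495 in knockout and 843 in control (-0.99 ± 0.20) at its brightest probe, and its 3 probes ran from -0.99 to 0.05, so its call rests on the choice of probe. Ndufaf6 had 178 in knockout and 237 in control (-0.63 ± 0.21). Past 1.5-fold were thus 5 of the 14 assembly factors, against 4 of the 79 subunits and 23.3% of all measured genes. The difference between these shares was not tested.

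Assembly factors of complexes II to V had a median of 0.00 over 27 measured genes, with 1 at least 1.5-fold higher (10.1% of all genes) and 1 lower (13.2% of all genes). Sdhaf2, which attaches flavin to Sdha, had 978 in knockout and 488 in control (0.78 ± 0.20), with 3 probes from 0.32 to 0.78. The copper chaperone gene Cox17 had 3270 in knockout and 1920 in control (0.55 ± 0.20). Ttc19, which acts on complex III, had 90.8 in knockout and 120 in control (-0.62 ± 0.22), with 3 probes from -0.82 to -0.16. Cytochrome c itself (Cycs) had 4900 in knockout and 5180 in control (-0.30 ± 0.20) at its brightest probe, but its 3 probes ran from -0.30 to 0.35 and fix no direction. The ATP synthase inhibitor gene Atpif1 had 23300 in knockout and 21300 in control (-0.09). Ndufab1, the acyl carrier subunit of complex I, had 1710 in knockout and 1250 in control (0.23). Dmac2l had 515 in knockout and 287 in control (0.62 ± 0.21), and 0.25 at its other probe.

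Regulators of mitochondrial biogenesis had a median of 0.03 over 19 measured genes, with 3 at least 1.5-fold higher (10.1% of all genes) and 3 at least 1.5-fold lower (13.2% of all genes). None was past 2-fold (7.42% of all genes). Ppargc1a and Ppargc1b, coactivators that drive subunit genes in muscle and brown fat, were both lower. Ppargc1a had 28.4 in knockout and 37.8 in control (-0.63 ± 0.30) and Ppargc1b had 88.2 in knockout and 138 in control (-0.87 ± 0.21), with other probes at -0.48 for Ppargc1a and -0.34 for Ppargc1b. Ppard, a nuclear receptor of fat oxidation, had 21.8 in knockout and 36.2 in control (-0.95 ± 0.36). On the other side, Twnk, the mitochondrial DNA helicase, had 121 in knockout and 60.3 in control (0.78 ± 0.22). Ppara had 243 in knockout and 123 in control (0.78 ± 0.21), and Tfam, which packages mitochondrial DNA, had 1300 in knockout and 739 in control (0.59 ± 0.20). Of the factors whose elements were searched, Nrf1 was at -0.09, Esrra at 0.21 and Yy1 at 0.14. The GA-binding protein genes had probes that disagree, from -0.46 to 0.27 over 3 probes of Gabpa and at -1.95 and -0.11 for Gabpb1, so no level of change is given for them. CREB and SP1 factors were not in the list.

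The import machinery had a median of -0.11 over 18 genes. At least 2-fold lower was 1 gene (4.38% of all genes), and 3 were at least 1.5-fold lower (13.2% of all genes). Tomm22, the central receptor of the outer membrane translocase, had 620 in knockout and 1340 in control (-1.33 ± 0.20, 2.52-fold lower). Tomm20, its partner receptor, had 3060 in knockout and 4240 in control (-0.69 ± 0.20), and the channel gene Tomm40 had 237 in knockout and 307 in control (-0.59 ± 0.21). The genes furthest up were Timm23 and Timm22 of the inner membrane translocase, Timm23 with 6530 in knockout and 4400 in control (0.35 ± 0.20) and Timm22 with 1740 in knockout and 1210 in control (0.30 ± 0.20). The 78 mitochondrial ribosomal protein genes, which serve the translation of the mitochondrial DNA-encoded subunits, had a median of 0.05, with 3 at least 1.5-fold higher (Mrps11 at 0.89, Mrpl19 at 0.75 and Mrpl54 at 0.74) and none lower, against 10.1% and 13.2% of all genes. The 75 measured cytosolic ribosomal protein genes had a median of -0.13 and an interquartile range 0.17 wide. Of them, 2 were at least 2-fold higher (Rpl3 and Rpl30) and none at least 2-fold lower, against 3.04% and 4.38% of all genes. Rpl11 was furthest down (-0.91). Median scaling adds 0.35 to every gene alike.

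**Figure D5:**
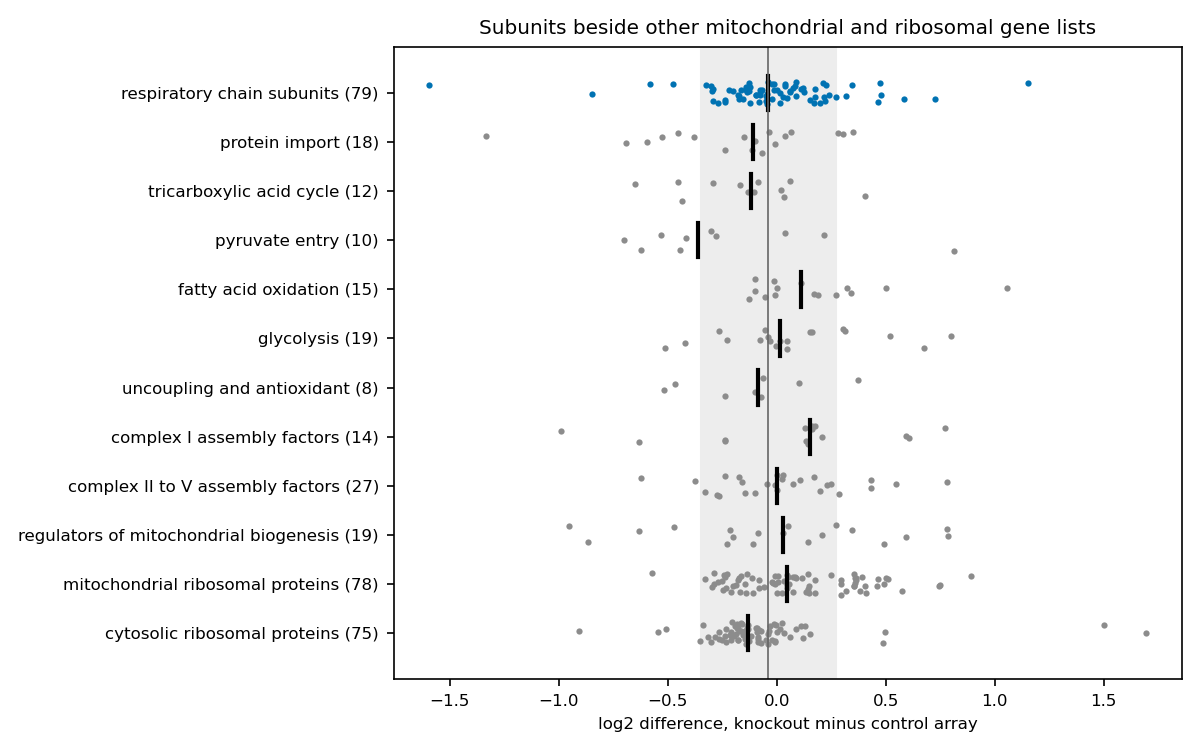
Each point is a gene measured on both arrays at its log2 difference (knockout minus control array), in 1 row per list with its number of genes, and the thick bar is the list's median. The grey band is the interquartile range of all measured genes (-0.35 to 0.27) and the thin line their median. The 79 subunits are centred on that line.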

How the data were processed

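Peeled epidermis of the knockout and control genotypes was measured on 1 one-colour Agilent array each. Per the file headers, the arrays were read with Agilent Feature Extraction 10.7.3.1 on a design annotated on mm9, and the deposited intensity values were background-subtracted and detrended within the array. The authors' deposited table holds log2 values centred per probe (largest sum of the 2 columns 1e-06, medians -0.14 for knockout and 0.14 for control), and its difference had an r of 1.00 with the scanner difference across probes, a median offset of -0.01 and the same direction. Levels cannot be had from it.

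Outlier spots were left out, spots of a probe averaged, and log2 signals set against the 75th percentile of each array. No probe was saturated. RefSeq accessions (GRCm38.p6) named 26662 probes (64.8%). Of a gene's probes, the one with the highest mean signal among those measured on both arrays stands for it. A gene dim on 1 array has a bound against the higher of its own signal and the lowest signal well above background. No p-value was computed, and the calling code was tested on simulated data.

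Members, lists and modules were chosen with earlier results of these data known. Named genes are those past 1.5-fold or with a bound, the 3 furthest each way per complex, catalytic subunits, isoform pairs and up to 3 furthest each way of each other list. Further members that complete a complex or module, Pdhb, Pdhx, Mpc1, Etfb, Etfdh and the factors whose elements were searched were added after their values were seen. The values of 1 member are not reported here, though it is counted in the summaries. Alternatives were other scalings (median, quantile, cyclic loess and normexp, whose offset was 50), run in R 4.3.3 with limma 3.58.1, other filters, the mean over probes and the authors' table. The rest ran in Python 3.11.15 (pandas 2.3.3, numpy 2.4.6), with figures from matplotlib 3.10.9.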

Additional observations from a re-analysis of the deposited data

How the results depend on the processing

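The number of arrays limits the precision, and dim probes (Cox6a2, Cox8b) are limited by background. No paired analysis was possible because a genotype is a single array. Median scaling moved every gene by 0.35: the members' median became 0.31, and the medians of complexes I to V became 0.40, 0.19, 0.25, 0.18 and 0.30. Members at least 2-fold higher numbered 2 under median scaling, 2 at a threshold of 1.5-fold and 0 at 3-fold, against 1. Those 2-fold lower numbered 0 under normexp, 2 with genes measured on at least 1 array, 3 with no filter on background and 2 at 1.5-fold, against 1. At 1.5-fold, higher members numbered 10 under median scaling and 4 under normexp, against 2, and lower ones 1 under median scaling, 1 under normexp and 5 with no filter, against 2. Shares over all genes at 1.5-fold under these settings are not given here, so these counts describe no change particular to the members. Taken against the median of all genes, the members' median stayed between -0.00 and 0.10 over the scalings. No called member changed sign. Of the 42 members followed one by one, normexp moved 3 by more than the technical error and quantile and cyclic loess 1 each, which was Cox6a2 (-1.30 in both). The mean over probes and the authors' table moved none of the 86 results followed by more than the technical error. For most members this was fixed in advance and is no check. The mean over probes cannot move the 63 members with 1 measured probe, and the authors' table holds nearly the same scanner differences. Ndufv3, read by several probes but not among the members followed, went from 0.22 to 0.46 with the mean over probes. That move is larger than its technical error of 0.20.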

Other observations

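Pathways that feed electrons into the chain differed in how even they were. The interquartile range was 0.47 wide for pyruvate entry, 0.35 for the tricarboxylic acid cycle and 0.33 for fatty acid oxidation. It was 0.26 for the subunits, 0.30 for glycolysis, 0.27 for uncoupling and antioxidant genes and 0.17 for cytosolic ribosomal proteins. These lists were not matched for signal, and bright probes vary less. Genes of pyruvate entry had the lowest median of the mitochondrial lists shown here, -0.36 over 10 genes, with 2 at least 1.5-fold lower (13.2% of all genes) and 1 higher (10.1% of all genes). Its side held under every scaling run, and against the median of all genes it lay between -0.36 and -0.23. The 4 measured subunits of pyruvate dehydrogenase in this list were below 0 under the 75th percentile scaling, which median scaling would raise by 0.35. Dlat had 878 in knockout and 1160 in control (-0.62 ± 0.20), and Pdha1 had 749 in knockout and 929 in control (-0.53 ± 0.20). Pdhb had 2580 in knockout and 2960 in control (-0.42 ± 0.20), and Pdhx had 404 in knockout and 421 in control (-0.28 ± 0.20). These are the brightest probes, and the second probes of Dlat, Pdha1 and Pdhb were nearer 0, at -0.20, -0.21 and -0.09. The pyruvate carrier gene Mpc1 had 2260 in knockout and 2640 in control (-0.44 ± 0.20). Of the kinases that switch the enzyme off, Pdk1 had 1330 in knockout and 649 in control (0.81 ± 0.20) and Pdk4 had 139 in knockout and 194 in control (-0.70 ± 0.21). The tricarboxylic acid cycle had a median of -0.12 over 12 genes, with Idh3a at 1760 in knockout and 2370 in control (-0.65 ± 0.20), Dlst at -0.45 and Mdh2 at -0.44. Dld, also a subunit of pyruvate dehydrogenase but listed with the cycle, was furthest up at 0.41, with its other probe at -0.40.

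Fatty acid oxidation had a median of 0.11 over 15 genes. Etfa, a subunit of the flavoprotein that passes electrons from fat oxidation towards ubiquinone, had 3050 in knockout and 1260 in control (1.06 ± 0.20, 2.08-fold higher). Next were Acadl, an acyl-CoA dehydrogenase, with 905 in knockout and 548 in control (0.50 ± 0.20) and Cpt2 with 1330 in knockout and 902 in control (0.34 ± 0.20). The partner of Etfa, Etfb, had 8870 in knockout and 7050 in control (0.11), and their acceptor Etfdh had probes of opposite sign (-0.36 and 0.32). Glycolysis had a median of 0.01 over 19 genes, with Pfkl at 1480 in knockout and 729 in control (0.80 ± 0.20), the dim muscle gene Pgam2 at 47.6 in knockout and 25.6 in control (0.67 ± 0.27), Aldoc at 1190 in knockout and 713 in control (0.52 ± 0.20) and Slc2a1 at 7180 in knockout and 8800 in control (-0.51 ± 0.20). The uncoupling and antioxidant list had a median of -0.08 over 8 genes and no member past 1.5-fold (23.3% of all genes), with Prdx5 furthest up (0.37) and Gpx4 furthest down (-0.52).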
